A study of Homo sapiens with 6 samples.

Results

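The RAB genes encode the largest branch of the RAS superfamily of small GTPases. They were taken as every protein-coding row of the deposited count table whose symbol is RAB followed by a number and at most a letter and a digit, which gave 62 of 30327 genes. One further row with such a symbol, RAB1C, is a processed pseudogene and was left out. The libraries came from SK-BR-3, an established HER2-overexpressing breast cancer cell line, and no other genetic change is given for either group. The 3 control libraries (si_NC) were from cells transfected with a nontargeting siRNA. The 3 treated libraries carry the description si_GRB2, an siRNA against the adaptor GRB2, whereas their titles and genotype labels name GRB2 overexpression. Only 1 cell line was studied, and nothing in the labels says whether the 3 libraries of a group came from separate cultures, so the p-values measure the spread between these libraries.

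RAB proteins switch between a GDP-bound form held in the cytosol and a GTP-bound form on membranes. Exchange factors load GTP, GTPase-activating proteins end the active state, and effectors bound to the active form tether, move and fuse vesicles. Each RAB marks a compartment, and in HER2-positive cells the endosomal members act on the route by which receptor tyrosine kinases are recycled to the surface or sent to the lysosome.

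The count table held 24810378 to 28532480 reads per library, and counts are given as CPM, read counts scaled to the TMM-corrected library size. GRB2 ranged from 124 to 130 CPM in si_NC and from 27.8 to 29.6 CPM in the libraries labelled si_GRB2. Its log2 fold change was −2.15 (SE 0.04, adjusted p = 3.87e-15, edgeR). GRB2 therefore goes against the overexpression title, and every direction below is that of the libraries labelled si_GRB2 relative to si_NC. Of 7 markers of a HER2-positive luminal line, 6 were abundant and CDH1 had 9 reads in all libraries together. The summed level of these markers was 17384 to 17771 CPM in si_NC and 14536 to 15126 CPM in si_GRB2, with the keratins KRT8, KRT18 and KRT19, GRB7 and EPCAM lower. ERBB2, which encodes HER2, went the other way, from 3499 ± 74.9 to 4140 ± 132 CPM (SD, n = 3, log2 fold change 0.24, adjusted p = 1.14e-06, edgeR). Of 6 markers of other cells, PTPRC, CD3E, COL1A2 and PECAM1 had 14 reads or fewer and COL1A1 was at 3.71 to 5.31 CPM. CDH5 was at 27.2 to 29.4 CPM in si_NC and 16.2 to 20.5 CPM in si_GRB2. The summed level of these 6 markers was 32.8 to 33.4 CPM in si_NC and 21.4 to 25.02 CPM in si_GRB2, and its part in the results below was not tested.

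Enough reads for a test were present for 49 of the 62 RAB genes, and each of the 49 had at least 10 reads in every library. In the libraries labelled si_GRB2, 16 RAB genes were higher and 8 were lower at an adjusted p under 0.05 (edgeR's quasi-likelihood test), and 25 did not pass. Over all 15801 tested genes, 30.6% passed this threshold, 15.2% upward and 15.5% downward, against 32.7% upward and 16.3% downward among the tested RAB genes. The tested RAB genes had a median level of 45.7 CPM, against 16.2 CPM for all tested genes. Among genes with a mean of at least 10 CPM, a limit set after the data were seen, 20 of 36 RAB genes (55.6%) passed where 43.6% of all genes did. Of these, 13 of 36 RAB genes (36.1%) rose where 22.1% of all genes did, and 7 (19.4%) fell where 21.5% did. The rises were small, and 13 of the 16 had a log2 fold change under 0.3. The median log2 fold change of the 49 genes was 0.05, against 0.00 over all tested genes. The summed level of all 62 members was 3549 ± 29.5 CPM (SD, n = 3) in si_NC and 3594 ± 15.2 CPM in si_GRB2. All 24 RAB genes that passed had groups that did not overlap, as did 30 of the 49 (61.2%) and 42.3% of all tested genes. At 10 CPM or more, 66.7% of the RAB genes and 54.1% of all genes did not overlap. When the deposited FPKM were tested by limma on log2(FPKM + 1) instead, 12 of 62 RAB genes passed, 7 higher and 5 lower. Of all 29912 genes, 4.68% did. On log2(FPKM + 0.1), 11 of 62 RAB genes passed, where 5.13% of all genes did. With a mean FPKM of at least 1 and log2(FPKM + 1), 17 of 41 RAB genes passed, against 24.7% of genes. The count-based alternatives gave 27 RAB genes with library totals alone (32.8% of all genes passed), 24 with DESeq2 size factors in edgeR (30.6%), 23 with DESeq2 (27.3%), 23 with no filter (15.9%), 23 with at least 10 counts in every library (33%) and 24 with a replicate block (30.4%). These fits held 62 RAB genes with no filter and 49 otherwise. Leaving out 1 library at a time gave 21 to 24 of 49 or 50 RAB genes, with 23.4% to 27.5% of all genes.

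**Figure D1:**
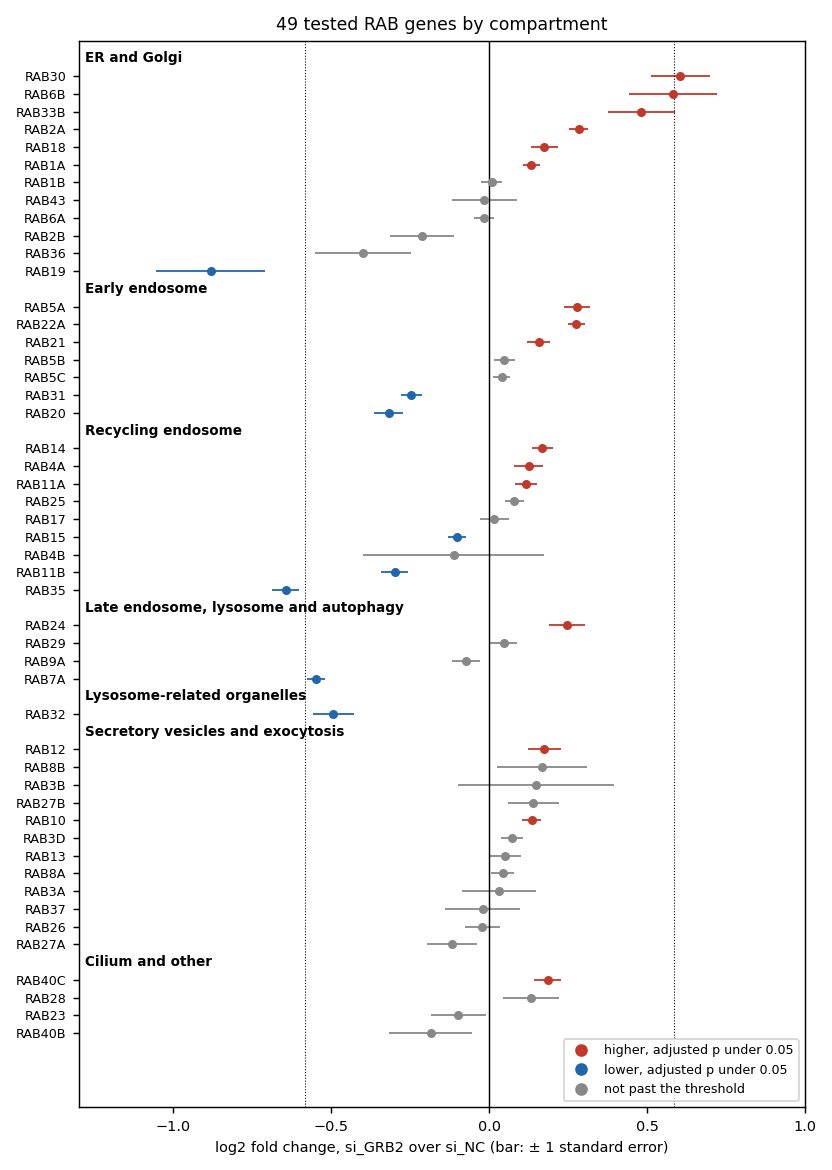
Log2 fold change of si_GRB2 over si_NC for each of the 49 tested RAB genes (points, with bars of 1 standard error), grouped by compartment; dotted lines mark a 1.5-fold change in either direction and colour the calls at an adjusted p under 0.05. RAB19 and RAB35 lie beyond the lower line and RAB30 beyond the upper line, with RAB6B and RAB7A just inside.

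RAB19 and RAB35 fell and RAB30 rose by more than 1.5-fold at an adjusted p under 0.01 (edgeR), together called both limits here, 3 of 49 RAB genes against 2.52% of all tested genes. Downward these were 2 RAB genes against 1.69% of all genes, and upward 1 against 0.829%. RAB35, which drives fast recycling from endosomes to the plasma membrane and acts in cytokinesis, measured 44.3, 45.8 and 45.2 CPM in si_NC and 29.5, 28.6 and 28.5 CPM in si_GRB2. All si_GRB2 libraries lay under all si_NC libraries, with a spread of about 1 CPM within each group. The level of RAB35 (chromosome 12 of GRCh38 from 120095099 to 120117502, minus strand) fell by 36.0% (log2 fold change −0.64, SE 0.04, adjusted p = 1.38e-08, edgeR). RAB7A, the GTPase of late endosomes that directs their fusion with lysosomes, had 274, 283 and 269 CPM in si_NC and 185, 186 and 193 CPM in si_GRB2. With 37086 reads it was among the best counted members, and all si_GRB2 libraries lay well under all si_NC libraries. The level of RAB7A (chromosome 3 from 128693669 to 128825942, plus strand) fell by 31.6% (log2 fold change −0.55, SE 0.03, adjusted p = 1.22e-09, edgeR), short of the 1.5-fold limit of 0.58 on the log2 scale. Both falls passed under every alternative that was run, limma on FPKM included.

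**Figure D2:**
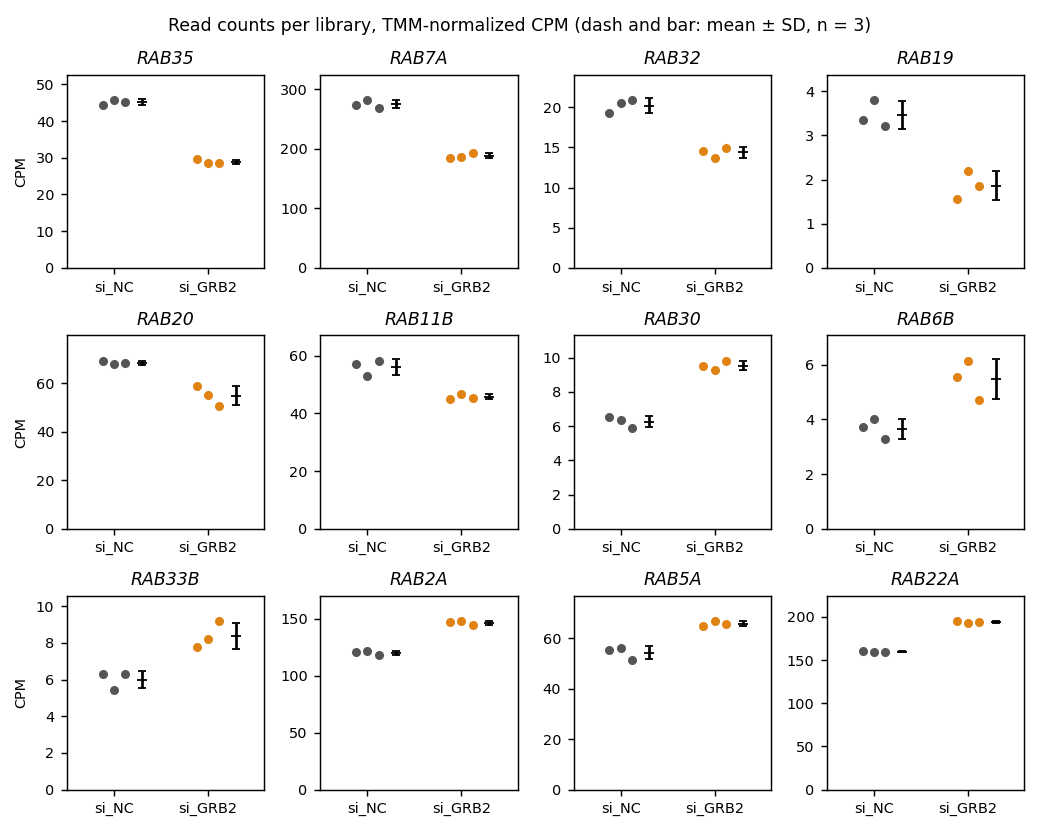
TMM-normalized CPM in each of the 3 si_NC and 3 si_GRB2 libraries for 12 RAB genes (points), with the mean and SD beside them. In each of the 12 genes the groups do not overlap; RAB35 went from 45.1 to 28.9 CPM and RAB22A from 160 to 194 CPM.

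The stretch of 250 bases before to 50 bases after the start is shown for RAB35 and RAB7A, the pair of well-counted members with the largest falls, and for RAB30 and RAB19, the other members past the 1.5-fold limit. The sequences are from RefSeq (GRCh38.p14), 5′ to 3′ in the direction of the gene, at chr12:120116704-120117003 (minus strand), chr3:128725933-128726232 (plus), chr11:83071848-83072147 (minus) and chr7:140403808-140404107 (plus). The stretches of RAB35 and RAB7A lie inside the gene spans given above. The start meant here is thus not the outer end of those spans, which are from GENCODE. Capitals mark matches on either strand to the GC box (GGGCGG) or the CCAAT box (CCAAT).
RAB35: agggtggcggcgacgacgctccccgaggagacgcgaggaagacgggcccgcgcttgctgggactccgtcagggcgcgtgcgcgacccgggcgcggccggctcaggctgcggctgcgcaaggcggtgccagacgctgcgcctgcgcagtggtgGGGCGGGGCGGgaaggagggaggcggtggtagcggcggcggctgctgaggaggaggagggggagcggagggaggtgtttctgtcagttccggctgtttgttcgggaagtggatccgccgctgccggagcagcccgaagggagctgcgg
RAB7A: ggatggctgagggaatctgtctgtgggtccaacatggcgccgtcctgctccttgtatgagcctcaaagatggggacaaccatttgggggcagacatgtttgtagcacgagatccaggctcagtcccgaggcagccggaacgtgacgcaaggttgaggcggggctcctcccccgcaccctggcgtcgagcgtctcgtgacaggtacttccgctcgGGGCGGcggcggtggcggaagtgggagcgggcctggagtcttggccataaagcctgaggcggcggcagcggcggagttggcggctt
RAB30: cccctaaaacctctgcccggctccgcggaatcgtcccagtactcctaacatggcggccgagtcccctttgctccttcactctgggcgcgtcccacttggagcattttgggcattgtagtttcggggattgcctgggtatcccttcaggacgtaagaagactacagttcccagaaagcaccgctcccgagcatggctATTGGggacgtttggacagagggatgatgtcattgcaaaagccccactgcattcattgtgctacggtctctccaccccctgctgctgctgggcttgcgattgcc
RAB19: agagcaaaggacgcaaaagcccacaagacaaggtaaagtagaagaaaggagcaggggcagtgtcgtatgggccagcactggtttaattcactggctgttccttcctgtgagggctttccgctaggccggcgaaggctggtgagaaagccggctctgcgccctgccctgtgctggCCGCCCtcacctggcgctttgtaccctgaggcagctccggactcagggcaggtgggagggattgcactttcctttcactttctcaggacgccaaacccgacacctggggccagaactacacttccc
The RAB35 stretch has 74.0% G and C and holds a pair of GC boxes that share a base, RAB7A and RAB19 hold 1 GC box each, and RAB30 holds 1 CCAAT box and no GC box. A promoter was found for 49 of the 62 members, tested or not, and 39 of these (79.6%) hold a GC box, against 44.6% of 27305 promoters of the same length. The median G and C content was 65.0% among the RAB promoters and 58.3% among all promoters. The GC box was in 11 of 12 promoters of genes that rose, 6 of 6 of genes that fell and 18 of 22 of genes tested that did not pass. The ETS motif CCGGAAG was in 5 of the 12, 1 of the 6 and 3 of the 22. In the same order, the E-box CACGTG was in 4, 1 and 1, and the CCAAT box in 2, 1 and 8. TGANTCA was in 0, 0 and 2, TGACGTCA in 0, 0 and 1, and TATAAA in 0, 0 and 0. The CCAAT box was in 26.5% of RAB promoters and 35.7% of all, the E-box CACGTG in 12.2% and 7.43%, and the ETS motif CCGGAAG in 18.4% and 10.7%. The AP-1 motif TGANTCA was in 6.12% and 7.76%, the cAMP response element TGACGTCA in 2.04% and 1.98%, and TATAAA in 8.16% and 11.95%. These motifs were searched on both strands, the 4 promoters printed hold no match to the last 5 of them, and a match is a description of the letters only.

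In the early secretory pathway and Golgi, 12 of 19 members had enough reads. Of these, 6 rose, 1 fell and 5 did not pass, where 15.2% of all tested genes rose and 15.5% fell. Among genes at 10 CPM or more these shares were 22.1% and 21.5%. RAB30, a Golgi GTPase, had 6.53, 6.36 and 5.92 CPM in si_NC and 9.50, 9.29 and 9.84 CPM in si_GRB2. Its log2 fold change was 0.61 (SE 0.09, adjusted p = 0.000116, edgeR), and all si_GRB2 libraries were above all si_NC libraries. RAB30 fell short of the 1.5-fold limit without si_NC replicate 3 (0.56) and without si_GRB2 replicate 3 (0.58). RAB6B, the paralogue of the Golgi GTPase RAB6A best known from neurons, had 3.71, 4.002 and 3.28 CPM in si_NC and 5.56, 6.15 and 4.70 CPM in si_GRB2. Its log2 fold change of 0.58 (SE 0.14, adjusted p = 0.00459, edgeR) lay just under the fold limit, and RAB6B passed both limits without si_GRB2 replicate 3 and with library totals alone. RAB33B, which binds the autophagy protein ATG16L1 at the Golgi, had a mean of 6.001 ± 0.474 CPM in si_NC and 8.39 ± 0.703 CPM in si_GRB2 (SD, n = 3). RAB33B thus rose by 39.6% (adjusted p = 0.00236, edgeR). With limma over all genes, RAB33B and RAB6B did not pass on log2(FPKM + 1) or log2(FPKM + 0.1), nor RAB30 on log2(FPKM + 0.1). These 3 genes are weakly expressed, while the other rises of this group were in abundant genes. RAB2A, which acts between the Golgi and the ER, had 121, 121 and 118 CPM in si_NC and 147, 147 and 144 CPM in si_GRB2 (log2 fold change 0.28, SE 0.03, adjusted p = 2.62e-06, edgeR). RAB18, found on the ER and lipid droplets, rose by 12.9% and RAB1A, which carries ER-to-Golgi traffic, by 9.71%.

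RAB19 was the 1 member of the Golgi group that fell. It had 3.35, 3.81 and 3.21 CPM in si_NC and 1.55, 2.18 and 1.86 CPM in si_GRB2, so each si_GRB2 library was under each si_NC library. The log2 fold change was −0.88 (SE 0.17, adjusted p = 0.000928, edgeR), the largest in size of the family and among the least precise, with 427 reads in all. RAB19 lies across from SLC37A3 on the opposite strand, which had 4853 reads and did not pass (adjusted p = 0.221, log2 fold change 0.08). RAB6B likewise overlaps SRPRB, which had 16502 reads against 726 and rose (adjusted p = 0.00181, log2 fold change 0.15). The libraries were made with a strand-marking kit, and the sources used here do not say whether strand was used in counting, so reads of such pairs cannot be told apart with certainty. In all, 21 of the 49 tested members overlap a counted gene that holds at least 5% as many reads. RAB1B, RAB6A, RAB2B and RAB36 did not pass, at log2 fold changes of 0.01, −0.02, −0.21 and −0.40. The summed level of the 19 Golgi members was 845 ± 5.98 CPM in si_NC and 902 ± 12.5 CPM in si_GRB2 (SD, n = 3).

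All 7 early endosome members were tested, and 3 rose, 2 fell and 2 did not pass. Of all tested genes, 15.2% rose and 15.5% fell, and of those at 10 CPM or more 22.1% rose and 21.5% fell. RAB5A, the GTPase that drives fusion of early endosomes, had 55.2, 56.2 and 51.5 CPM in si_NC and 65.0, 66.7 and 65.9 CPM in si_GRB2. It rose by 21.4% (log2 fold change 0.28, SE 0.04, adjusted p = 7.99e-05, edgeR). RAB22A, which sorts cargo from early to recycling endosomes, had 161, 159 and 159 CPM in si_NC and 195, 192 and 194 CPM in si_GRB2. The groups did not overlap, and RAB22A rose by 21.1% (adjusted p = 1.27e-06, edgeR). RAB21, which carries integrins, rose by 11.5%. RAB31, the closest relative of RAB22A in coding sequence among the 62 members at 70.3% identity, went the other way, from 101 ± 2.42 to 84.9 ± 1.27 CPM (SD, n = 3, log2 fold change −0.25). RAB20, which acts on endosomes and phagosomes, fell by 19.8% (log2 fold change −0.32), and its si_GRB2 libraries were spread from 50.8 to 58.9 CPM. The abundant RAB5C and its paralogue RAB5B had log2 fold changes of 0.04 and 0.05 and did not pass.

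Of the 9 recycling endosome members, 3 rose, 3 fell and 3 did not pass, where 15.2% of all tested genes rose and 15.5% fell. Among genes at 10 CPM or more these shares were 22.1% and 21.5%. The summed level of the 9 was 825 ± 5.38 CPM in si_NC and 823 ± 5.90 CPM in si_GRB2 (SD, n = 3). Besides RAB35, the falls were in RAB11B and RAB15. RAB11B had 57.3, 53.2 and 58.4 CPM in si_NC and 45.1, 46.7 and 45.4 CPM in si_GRB2 (log2 fold change −0.30, SE 0.04, adjusted p = 7.22e-05, edgeR). RAB11A, the main GTPase of the recycling endosome, had 119, 121 and 114 CPM in si_NC and 124, 130 and 130 CPM in si_GRB2, and rose by 8.46% (adjusted p = 0.0153, edgeR). RAB11A thus rose slightly while RAB11B fell. The rise of RAB11A did not pass without si_NC replicate 3, without si_GRB2 replicate 2 or without si_GRB2 replicate 3 (adjusted p above 0.05 in each). It also did not pass in any limma test on FPKM, and RAB11B did not with log2(FPKM + 1) or log2(FPKM + 0.1) over all genes. RAB11A overlaps DENND4A on the opposite strand, a gene with 1526 reads and a log2 fold change of 0.53. RAB14, which moves cargo between the trans-Golgi network and endosomes, rose by 12.4%, and it overlaps GSN on the opposite strand, a gene with 13165 reads and a log2 fold change of 0.32. RAB4A, of the fast recycling route, rose by 9.04% (adjusted p = 0.0478, edgeR) and did not pass in 12 of 15 alternatives, with every omission of a library but si_NC replicate 2 among them. RAB15 changed least of the genes that passed, by −6.83%. It did not pass when libraries were scaled by their totals alone, nor in any limma test on FPKM. RAB25, an epithelial relative of RAB11A, had 157 ± 0.557 CPM in si_NC and 166 ± 5.81 CPM in si_GRB2 and did not pass (adjusted p = 0.0654, edgeR), but passed with library totals alone and without si_GRB2 replicate 3.

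In late endosomes, lysosomes and autophagy, 4 of 6 members were tested, and 1 rose and 1 fell, where 15.2% and 15.5% of all tested genes did. Among genes at 10 CPM or more these shares were 22.1% and 21.5%. RAB7A fell, RAB24, an atypical member linked to autophagy, rose by 18.7%, and RAB9A and RAB29 did not pass. The summed level of the 6 was 423 ± 8.45 CPM in si_NC and 341 ± 9.25 CPM in si_GRB2 (SD, n = 3). RAB24 overlaps MXD3 on the same strand, a gene with 8948 reads and a log2 fold change of −0.21 that did not pass. RAB32, a GTPase of lysosome-related organelles and mitochondria, had 19.2, 20.5 and 20.9 CPM in si_NC and 14.5, 13.6 and 14.9 CPM in si_GRB2. It fell by 28.95% (log2 fold change −0.49, SE 0.06, adjusted p = 2.11e-05, edgeR), with no overlap between groups. Its melanosomal partner RAB38 had 10 reads in all and was not tested.

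Of 12 secretory and exocytic members, all tested, 2 rose and 10 did not pass. Of all tested genes 15.2% rose, and of those at 10 CPM or more 22.1%. RAB10, of polarized exocytosis, went from 191 ± 5.39 to 210 ± 0.893 CPM and RAB12 from 47.2 ± 1.09 to 53.3 ± 4.45 CPM (SD, n = 3), log2 fold changes of 0.13 and 0.18. The rise of RAB12 did not pass without si_NC replicate 2, without si_GRB2 replicate 2 or without si_GRB2 replicate 3, nor in any limma test on FPKM. RAB3D, RAB8A, RAB13 and RAB26, each over 20 CPM, had log2 fold changes from −0.02 to 0.07. The granule GTPases RAB27A and RAB27B were at −0.12 and 0.14. Among the remaining members, RAB40C, which joins a RAB domain to a SOCS box for ubiquitin ligase assembly, rose by 13.7%, and RAB23, RAB28 and RAB40B did not pass.

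The level of expression of each member was compared by the deposited FPKM, which are scaled by gene length. RAB1B was highest at 104 ± 6.03 FPKM in si_NC and 107 ± 5.14 FPKM in si_GRB2 (SD, n = 3), followed by RAB25 at 74.6 and 81.2 FPKM and RAB5C at 71.0 and 75.2 FPKM. RAB1A, RAB10 and RAB15 came next, at mean FPKM over all libraries of 49.7, 44.7 and 33.9. In all, 27 members had a mean of at least 10 FPKM and 21 a mean under 1 FPKM. RAB35 stood lower, at 9.02 ± 0.411 FPKM in si_NC and 5.95 ± 0.067 FPKM in si_GRB2. The 13 members not tested, RAB6C, RAB6D, RAB7B, RAB9B, RAB33A, RAB34, RAB38, RAB39A, RAB39B, RAB40A, RAB41, RAB42 and RAB44, had from 1 to 54 reads over the 6 libraries, and no change in them was detectable at this depth.

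**Figure D3:**
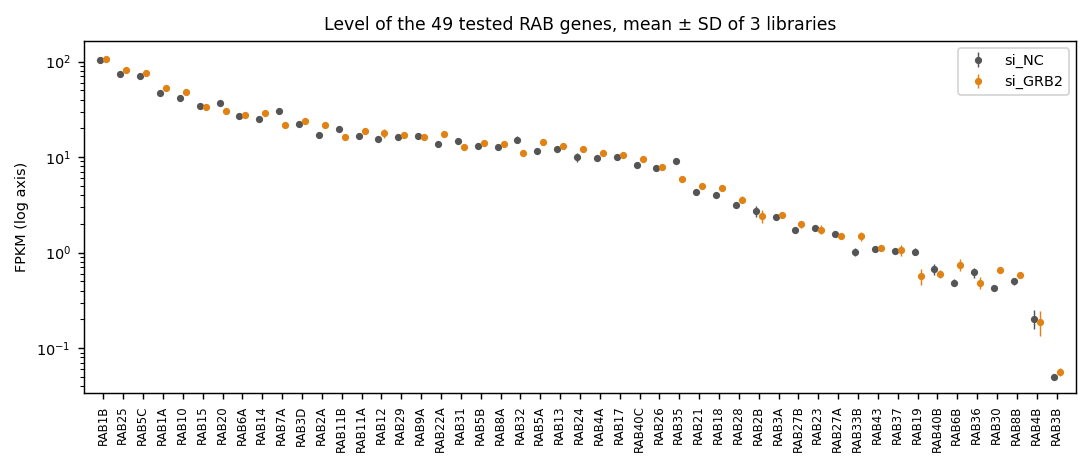
FPKM of the 49 tested RAB genes in si_NC and si_GRB2 (points are means and bars the SD of 3 libraries, on a log axis), ordered by mean level. Levels run from above 100 FPKM for RAB1B to about 0.05 FPKM for RAB3B, with RAB7A at a mean of 26.2 FPKM and RAB30 at 0.545 FPKM.

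Several RAB genes have paralogues that share a number. In 14 such pairs with both members tested, the coding sequences were 67.7% to 79.2% identical (median 75.6%), against a median of 54.1% over the 1866 pairs with different numbers. Both members passed in 1 pair, RAB11A and RAB11B, which moved in opposite directions, 1 member passed in 7 pairs and neither in 6. With limma on log2(FPKM + 1) or log2(FPKM + 0.1) over all genes, neither RAB11A nor RAB11B passed. The ratio of RAB11A to RAB11B in FPKM was 0.843, 0.927 and 0.796 in si_NC and 1.12, 1.13 and 1.16 in si_GRB2. In FPKM, RAB11A was thus the lower of the pair in every si_NC library and the higher in every si_GRB2 library. In CPM, which are not scaled by length, RAB11A was the higher in both groups. Its means were 118 CPM against 56.3 CPM for RAB11B in si_NC, and 128 against 45.7 CPM in si_GRB2. Which of the pair is higher thus depends on the length scaling, while the ratio rose. The ratio of RAB5A to RAB5C was 0.163 ± 0.00668 in si_NC and 0.192 ± 0.00367 in si_GRB2, and that of RAB6A to RAB6B was 56.0 ± 5.82 and 37.3 ± 5.83 (SD, n = 3 each). RAB2A exceeded RAB2B by 6.36 ± 0.626 times in si_NC and 9.05 ± 1.39 times in si_GRB2. RAB2B itself did not pass, and it overlaps TOX4 on the opposite strand (10168 reads against 1819), so this ratio is uncertain. In 8 of the 14 pairs the ratios of the 2 groups did not overlap, and with 3 libraries a group an exact permutation test of a ratio cannot go below p = 0.1. Only uniquely mapped reads were counted, and the 4 RAB pseudogenes in the table held 10 reads together. RAB4B shares its locus with the readthrough gene RAB4B-EGLN2, which had 10257 reads against 151, so its value is uncertain. The values of RAB13, RAB43, RAB5C, RAB24, RAB3D and RAB27A, which overlap counted genes on the same strand, are uncertain too. For RAB3D the gene is TMEM205 (8664 reads against 19772) and for RAB27A it is PIGBOS1 (956 against 1697).

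**Figure D4:**
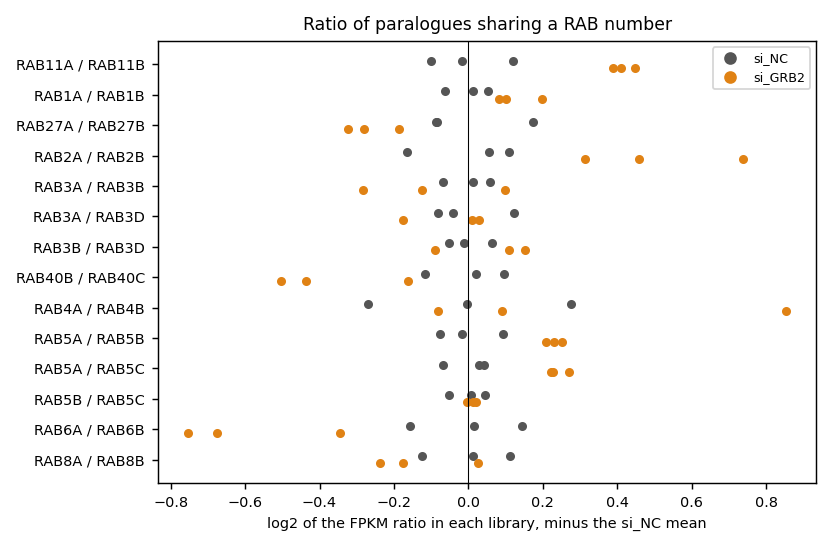
Log2 of the FPKM ratio of 14 pairs of RAB paralogues in each library, set to the mean of si_NC (grey points si_NC, orange points si_GRB2). The si_GRB2 libraries lie to the right of all si_NC libraries for RAB11A over RAB11B, RAB1A over RAB1B, RAB2A over RAB2B and RAB5A over RAB5B or RAB5C, and to the left for RAB6A over RAB6B, RAB27A over RAB27B and RAB40B over RAB40C.

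The genes that load, unload and read RAB proteins were counted in 4 lists. Of 112 tested genes, 27 rose and 16 fell at an adjusted p under 0.05, 38.4% against 30.6% of all tested genes. Among all genes with a mean of at least 10 CPM, 43.6% passed, and the lists were not matched for level. Among the genes of prenylation and membrane recycling, CHML, an escort protein for RAB prenylation, and RABIF, which stabilizes nucleotide-free RAB proteins, fell, with log2 fold changes of −0.27 and −0.17 (adjusted p = 0.00213 and 0.00855, edgeR). Of 38 exchange factors tested, 8 rose and 4 fell, 31.6% and thus near the 30.6% of all tested genes. RIN1, an exchange factor for RAB5 that binds active RAS, went from 4.04 ± 0.119 to 2.07 ± 0.275 CPM (SD, n = 3, log2 fold change −0.96, adjusted p = 0.00017, edgeR), and was the 1 gene of the 4 lists past both limits. GAPVD1, also an exchange factor for RAB5, had 53.3, 53.3 and 51.4 CPM in si_NC and 33.9, 36.8 and 36.5 CPM in si_GRB2 (log2 fold change −0.56, adjusted p = 1.07e-07, edgeR). DENND4A, an exchange factor for RAB10, had a log2 fold change of 0.53.

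Of 10 GTPase-activating proteins outside the TBC1D series, 5 rose and 5 did not pass. Of all tested genes 15.2% rose, and of those at 10 CPM or more 22.1%. EVI5, EVI5L and GRTP1 had log2 fold changes of 0.29, 0.29 and 0.38. Of 56 effectors, 13 rose and 10 fell, 41.1% against 30.6% of all tested genes and 43.6% of those with a mean of at least 10 CPM. GOLGA2, the Golgi matrix protein bound by RAB1, had 51.7, 49.6 and 54.5 CPM in si_NC and 70.9, 77.7 and 71.0 CPM in si_GRB2, a log2 fold change of 0.50 (SE 0.05, adjusted p = 7.5e-07, edgeR). SYTL2, an effector of RAB27, and SH3TC2, an effector of RAB11, fell, with log2 fold changes of −0.48 and −0.72. The partners of the 2 leading members were looked up after the values were seen. Among the listed effectors, RILP and VPS39, which act with RAB7A, and MICALL1, which acts with RAB35, fell. Their log2 fold changes were −0.28, −0.13 and −0.15 (adjusted p = 0.00766, 0.0412 and 0.0139, edgeR). VPS41 and PLEKHM1, also partners of RAB7A, and ACAP2 and OCRL, also of RAB35, did not pass. Nor did PIK3C3, PIK3R4 and MICAL1 of the same list, and the partners named here are not a full set. Of all tested genes 15.5% fell, and of those at 10 CPM or more 21.5%. For RAB35, the exchange factors DENND1B and DENND1C rose (log2 fold changes 0.31 and 0.41, adjusted p = 0.00241 and 0.0276, edgeR), and DENND1A did not pass (−0.02). For RAB7A, the exchange factor subunits MON1A, MON1B, CCZ1 and CCZ1B did not pass, with log2 fold changes from −0.08 to 0.13, and CCZ1 and CCZ1B are near-identical copies whose reads are uncertain.

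**Figure D5:**
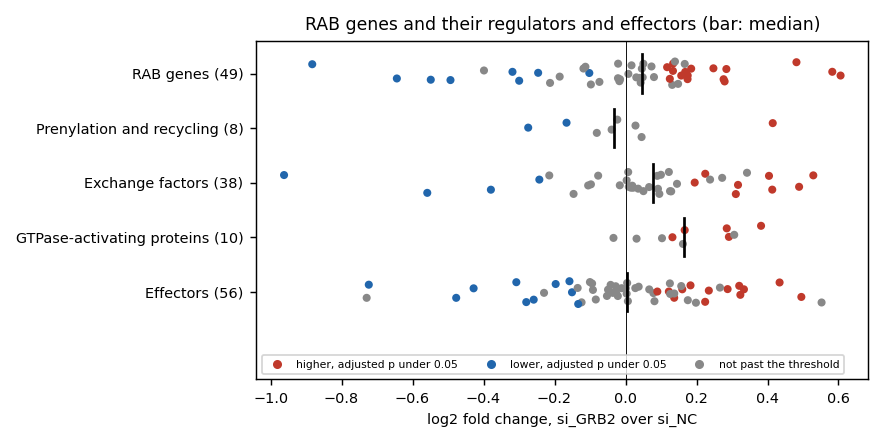
Log2 fold change of si_GRB2 over si_NC for the 49 RAB genes and for the tested genes of 4 lists of regulators and effectors (points coloured by the call at an adjusted p under 0.05, bars at the median). The median is 0.05 for the RAB genes and 0.16 for the GTPase-activating proteins.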

How the data were processed

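Poly(A) RNA of 6 SK-BR-3 libraries, 3 si_NC and 3 si_GRB2, was analysed. The authors trimmed reads with FASTX-Toolkit, aligned them to GRCh38 with HISAT2 (named also in the submitters' processing notes) and deposited uniquely mapped read counts per gene, not normalized. The authors also deposited FPKM, rounded. The counting tool, annotation release and strand setting are not given in the sources used here. Counts were scaled by TMM and filtered by filterByExpr in edgeR 4.0.16 under R 4.3.3, which left 15801 genes. The 3 si_GRB2 libraries were then tested against the 3 si_NC libraries by quasi-likelihood, with no covariate and with Benjamini-Hochberg adjustment over those genes. The SE is the log2 fold change divided by the square root of F. GRB2 was also compared by an exact two-sided permutation test (p = 0.1, the smallest that 3 against 3 allow). The test was checked on simulated data. Depth was 24810378 to 28532480 reads per library, and low counts give larger SEs.

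Positions, coding sequences (Ensembl canonical transcripts) and overlaps are from GENCODE 44 on GRCh38. Coding sequences were aligned globally with Biopython 1.88 (match 1, mismatch -1, gap open -3, extend -0.5), and identity is over the longer sequence. Replicate numbers were not treated as pairs in the main test. The alternatives were DESeq2 1.42.0, other scalings and filters, limma 3.58.1 on log2(FPKM + 1) or log2(FPKM + 0.1), a replicate block and leaving out each library. The members, compartments and lists were chosen with earlier results of these data known. Named RAB genes are those past both limits, up to 12 per direction at an adjusted p under 0.05, the 6 with the highest FPKM and their paralogues, and 3 genes per list. RAB4A and genes named beyond this rule were chosen after their values were seen. Protein sequences were not used here. One gene that the naming rule selects is not reported here.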

Additional observations from a re-analysis of the deposited data

How the results depend on the processing

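GRB2 kept its direction and call under all 15 alternatives, with log2 fold changes from −2.18 to −1.91. With all libraries and counts, from 23 to 27 RAB genes passed (24 as reported), the most with library totals alone (20 higher, 7 lower), a scaling that moved the median of all genes by 0.05 on the log2 scale. With limma on log2(FPKM + 1), 12 passed (7 higher, 5 lower), 0 of them past both limits, and 13 genes of the regulator lists passed. With log2(FPKM + 0.1), 11 passed (6 higher, 5 lower), 1 past both limits, with 14 of the lists. With a mean FPKM of at least 1, 17 passed, 0 past both limits, with 21 of the lists. Every one of the 12, 11 and 17 was among the 24, and why fewer passed was not tested. In limma over all genes, RAB4A, RAB6B, RAB11A, RAB11B, RAB12, RAB15, RAB18, RAB21, RAB24, RAB31, RAB33B and RAB40C passed with neither 1 nor 0.1 added. RAB30 did not pass with 0.1 added.

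Leaving out 1 library at a time gave 21 to 24 RAB genes (13 to 15 higher, 8 to 9 lower), 2 to 3 past both limits, 32 to 41 genes of the lists and log2 fold changes of GRB2 from −2.18 to −2.13. Under a replicate block, 24 passed (15 higher, 9 lower), 23 of them shared. Deviations of same-numbered libraries correlated at 0.23, −0.09 and 0.08, and those of unlike-numbered libraries from −0.28 to 0.23. These values show no sign of pairing by number, but with 3 libraries a group they cannot exclude it. Of 461 refits of named RAB genes, 45 lost the call, 4 gained it and 412 stayed on their side of the threshold. The sign changed in 9 refits, 4 of RAB1B and 5 of RAB6A, which lie near 0 and passed in none, and in none of a gene that passed. Members under about 1 CPM were limited by depth.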
